A study of Sus scrofa with 2 samples.

Results

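The miRNAs of the miR-17 to miR-92a cluster and their paralogs were described in the small RNA of 2 porcine skeletal muscles, the glycolytic *longissimus dorsi* (LDM), which runs along the back, and the oxidative *psoas major* (PMM), which lies in the loin. Members were chosen by name, as every pig (ssc) entry numbered miR-17, miR-18a, miR-18b, miR-19a, miR-19b, miR-20, miR-20a, miR-20b, miR-92a, miR-92b, miR-106a, miR-106b, miR-93, miR-25 or miR-363, with all arms and copies. This rule found 14 of the 668 entries of the table, all among its 281 ssc entries. Muscle came from 3 female Landrace pigs aged 210 days, on the same diet and with no treatment named. Feed was removed the day before slaughter, and both muscles were taken from the middle section at slaughter. Equal amounts of RNA were pooled within each muscle and 1 library was made per muscle, so the spread between pigs was not measured, no test across animals was possible, and no p-value is given. Every interval below is a 95% interval of counting error only, in reads that carried no molecular identifiers.

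The miR-17 cluster, which runs from miR-17 to miR-92a-1, is a single primary transcript from which several miRNAs are cut, and its paralogs, which run from miR-106a to miR-363 and from miR-106b to miR-25, arose by duplication in vertebrates. In mammals the transcript is driven by MYC and E2F factors and is best known from proliferating cells, tumours, blood cell development and endothelium, where its products restrain cell cycle inhibitors and pro-apoptotic proteins. A miRNA selects its targets mainly through the seed, bases 2 to 8 from its 5′ end. By name the members fall into 4 seed groups. As bases 2 to 8, 8 of the 14 carry the seed of their group. The 5 minor arms, those with fewer reads of their precursor, are counted under their name. The miR-17 group takes in miR-20, miR-106a, miR-106b and miR-93 (5 entries here), the miR-18 group has 2 entries and the miR-19 group 3, and the miR-92 group takes in miR-25 and miR-363 (4 entries). In RefSeq's pig genes (assembly Sscrofa11.1), to which all 14 members could be matched through 11 miRNA genes, MIR17, MIR18A, MIR19A, MIR20A, MIR19B-1 and MIR92A-1 follow each other with no other gene between them. MIR106A, MIR18B, MIR20B-1, MIR19B-2, MIR92A-2 and MIR363-1 do so likewise in the paralogous cluster. Of the 16 precursors of these clusters and miR-92b, 11 had an entry by name. The ones without were miR-18b, miR-20b, miR-106b, miR-93 and miR-25.

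The consensus sequences of the deposited table are shown for the arm with more reads of each precursor, since the 4 groups are compared by them, and for miR-17-3p, whose ratio is set beside that of its other arm. Letters are those of cDNA, 5′ to 3′, and capitals mark bases 2 to 8. In the text the prefix ssc and the copy number of joined entries are left out.
ssc-miR-17-5p: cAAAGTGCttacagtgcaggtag
ssc-miR-17-3p: aCTGCAGTgaaggcacttgtagc
ssc-miR-20-5p: tAAAGTGCttatagtgcaggtag
ssc-miR-106a-5p: aAAGTGCTtacagtgcaggtag
ssc-miR-18a-5p: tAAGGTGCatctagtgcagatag
ssc-miR-19a-3p: tGTGCAAAtctatgcaaaactga
ssc-miR-19b-1-3p,ssc-miR-19b-2-3p: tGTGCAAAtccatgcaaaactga
ssc-miR-92a-1-3p,ssc-miR-92a-2-3p: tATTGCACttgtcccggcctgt
ssc-miR-92b-3p: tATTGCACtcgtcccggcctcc
ssc-miR-363-3p: aATTGCACggtatccatctgta

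All of these were 22 or 23 nt long. Leaving miR-17-3p aside, the capitals were the same within each seed group, with 1 exception. The consensus of miR-106a-5p begins 1 base further in and lies whole within that of miR-17-5p, from position 2 to its end, so that its bases 2 to 8 are shifted and a read of these letters cannot be told apart from a shortened miR-17-5p. Counted from the 5′ end, miR-17-5p and miR-20-5p differ at 2 of 23 positions (C1T and C12T, the base of miR-17-5p first). miR-19a-3p and miR-19b-3p differ at 1 of 23 (T11C), and miR-92a-3p and miR-92b-3p at 3 of 22 (T10C, G21C and T22C). The split of reads between such near copies is uncertain. The entries of miR-19b-3p and miR-92a-3p (the names with a comma above) each join 2 precursors, of which 1 lies in the miR-17 cluster and 1 in the miR-106a cluster, so the share of either cluster cannot be read from them.

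The libraries held 8750049 normalised reads in LDM and 8556672 in PMM, as deposited. LDM values counted in steps of the smallest value above 0 divided by 3 (1.15 units after rounding) came out whole within 0.001 of a step in 423 of 424 entries above 0, and PMM values were whole numbers in 592 of 593, and every member followed this pattern, so reads could be recovered for all of them. Entries under 3 reads were listed at 0. The tissue was checked by the muscle miRNAs miR-1-3p, miR-133a-3p, miR-133b-3p and miR-206-3p, which together held 685600 RPM (reads for each 1000000 of the library total) in LDM and 508942 RPM in PMM. The ratios of these libraries are not centred on 1. Over the 91 entries whose mean reached 100 RPM the median PMM to LDM ratio was 1.39-fold, and a member near that value lies at the middle of these libraries.

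The family made up a small part of both libraries and was listed higher in the oxidative muscle. The 14 members held 0.190% of the LDM reads (0.186 to 0.193) and 0.288% of the PMM reads (0.284 to 0.291). Their sum was 16586 normalised reads in LDM and 24609 in PMM, a ratio of 1.48 (1.45 to 1.51) that lay close to the 1.39-fold middle of the libraries. The miR-17, miR-92 and miR-19 groups had different ratios, while the miR-18 group had too few reads to be placed. The miR-17 group was 2.13-fold higher in PMM (1.99 to 2.28) and the miR-92 group 1.52-fold higher (1.48 to 1.55), while the miR-19 group was 1.13-fold higher (1.08 to 1.19). The last of these became lower in PMM when ratios were taken relative to the 1.39-fold middle (0.816-fold).

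**Figure D1:**
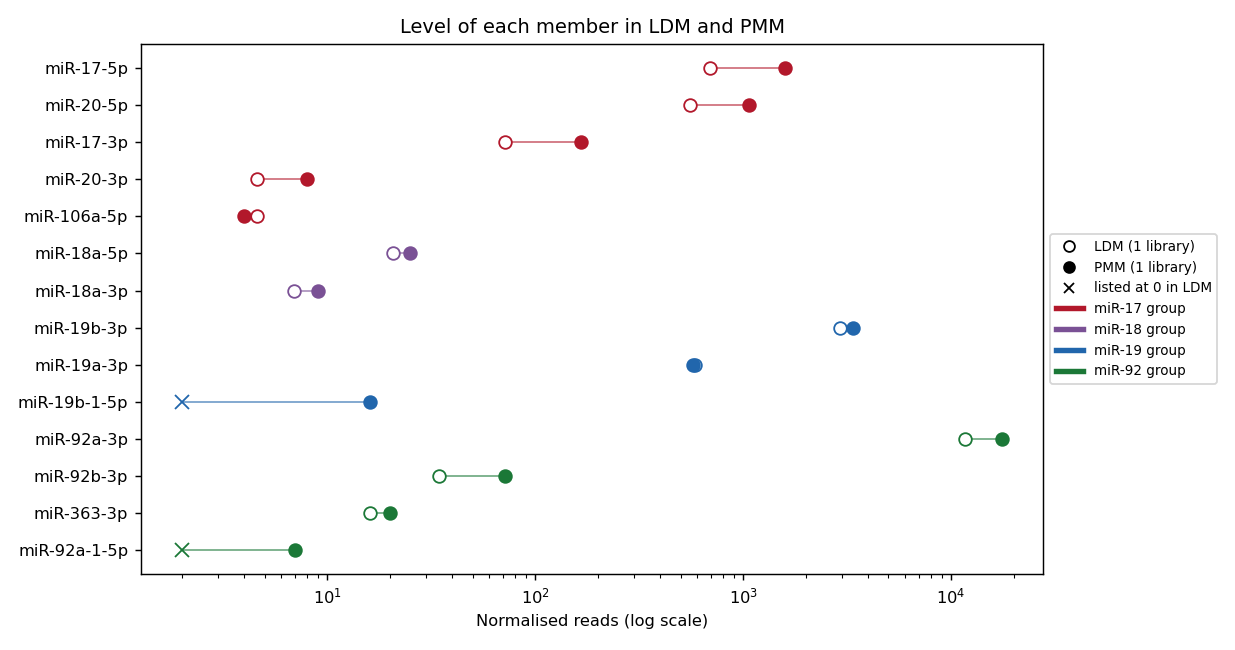
Normalised reads of each of the 14 members in LDM (open circles) and PMM (filled circles), 1 library each, on a log scale, coloured by seed group; a cross, drawn at the left edge at an arbitrary position, marks a member listed at 0. miR-92a-3p was highest in both libraries, with 11660 and 17667, and miR-17-5p moved from 690 to 1590.

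miR-17-5p and miR-20-5p carry the seed that targets the cell cycle inhibitor CDKN1A and E2F1 in human cells. ssc-miR-17-5p had 690 normalised reads in LDM and 1590 in PMM and was 2.30-fold higher in PMM (2.10 to 2.53). ssc-miR-20-5p, the product of MIR20A, had 557 in LDM and 1062 in PMM and was 1.91-fold higher (1.71 to 2.13). Of the 6 members with a mean of at least 10 RPM, 4 had a log2 ratio above that middle, as did 45.4% of all 185 entries at that level. Both of these miRNAs were among the 4, above it by 1.66-fold (1.51 to 1.83) for miR-17-5p and by 1.38-fold (1.23 to 1.53) for miR-20-5p.

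ssc-miR-17-3p, the strand opposite miR-17-5p in the hairpin, went from 71.3 to 166 normalised reads between LDM and PMM. Its ratio of 2.33 (1.73 to 3.17) was that of the other arm within counting error, since the ratio of the 2 arms' ratios was 1.01 (0.738 to 1.40). It made up 9.37% of the reads of both arms in LDM (7.26 to 11.8) and 9.45% in PMM (8.13 to 10.9). miR-20-3p was near the floor, with 4 reads in LDM and 8 in PMM, and its ratio of 1.74 spanned 0.466 to 7.89. miR-106a-5p, from the paralogous cluster, had 4 reads in each library, too few to give a direction (0.869-fold, 0.162 to 4.67).

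The miR-18 group had few reads in both libraries, although MIR18A lies between MIR17 and MIR19A in the cluster. miR-18a-5p, which in human cells targets the connective tissue growth factor gene CCN2, went from 20.7 to 25 normalised reads between LDM and PMM. Its ratio of 1.21 held 1 in its interval (0.633 to 2.35). miR-18a-3p had 6 reads in LDM and 9 in PMM (1.30-fold, 0.414 to 4.45). Both intervals also held the ratio of miR-17-5p, so these depths leave the direction of the group unknown.

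miR-19a-3p and miR-19b-3p share a seed and are known from mouse lymphoma as the oncogenic part of the cluster. miR-19b-3p was the second highest member. It held 2933 normalised reads in LDM against 3391 in PMM and was 1.16-fold higher in PMM (1.10 to 1.22). ssc-miR-19a-3p had 586 in LDM and 572 in PMM, and its ratio of 0.977 held 1 (0.865 to 1.10). Both were below the middle of these libraries, at 0.834 of it (0.792 to 0.878) for miR-19b-3p and 0.704 (0.624 to 0.795) for miR-19a-3p. miR-19b-1-5p had 16 reads in PMM and was listed at 0 in LDM. Against a floor of 3 reads per library it was at least 4.63-fold higher in PMM, and the counting interval of that comparison began at 1.33.

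The miR-92 group held most of the reads of the 14 members, 70.6% of them in LDM (69.9 to 71.4) and 72.2% in PMM (71.6 to 72.8). Nearly all were miR-92a-3p, which is known from mouse endothelium as a brake on vessel growth and targets the integrin subunit gene ITGA5 there. It had 11660 normalised reads in LDM, where it ranked 30 among all entries, and 17667 in PMM, where it ranked 26. Its ratio of 1.52 (1.48 to 1.55) was 1.09 times the middle of the libraries (1.07 to 1.12). miR-92b-3p, from a separate gene, had 34.5 normalised reads in LDM and 72 in PMM and was 2.09-fold higher in PMM (1.34 to 3.31). Its ratio could not be told from that of miR-92a-3p within counting error (ratio of ratios 1.38, 0.887 to 2.19). miR-363-3p, the last miRNA of the paralogous cluster, had 14 and 20 reads (1.24-fold, 0.596 to 2.66). miR-92a-1-5p was listed at 0 in LDM and had 7 reads in PMM. Against the floor it was at least 2.03-fold higher, but the counting interval of that comparison began at 0.463 and gives no direction.

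**Figure D2:**
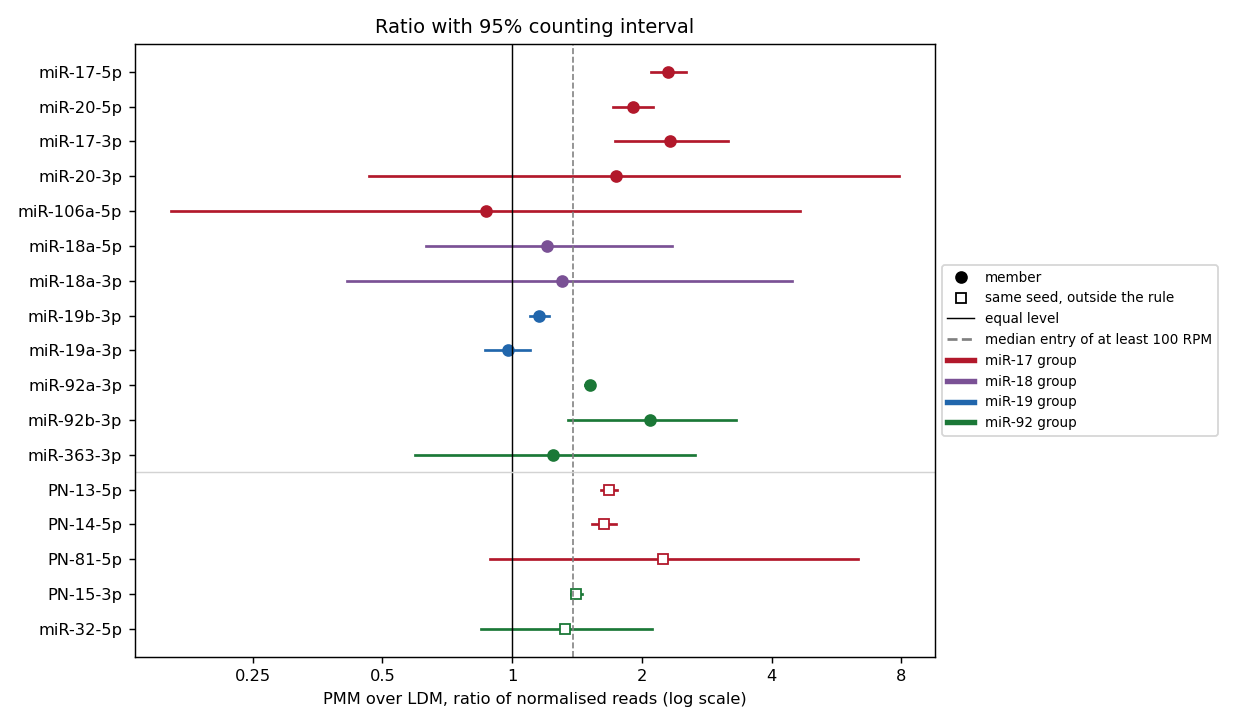
Ratio of PMM to LDM normalised reads (log scale) with 95% counting intervals for the 12 members listed above 0 in both libraries (circles) and, below the line, the 5 other entries with the seed of 1 of the 4 groups (open squares). The solid line marks equal level and the dashed line the 1.39-fold median of entries of at least 100 RPM; miR-17-5p, miR-17-3p and miR-20-5p lie to the right of the dashed line and miR-19a-3p and miR-19b-3p to the left.

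Differences between members do not depend on how the libraries are scaled, because any scaling multiplies every ratio alike. Of the 14 members, 6 had a mean of at least 10 RPM, and their ratios were compared in 15 pairs. In 13 pairs the interval of the ratio of ratios excluded 1. It held 1 for miR-17-3p with miR-17-5p and for miR-17-3p with miR-20-5p (1.22, 0.887 to 1.69). The widest gap between entries of the miR-17 cluster alone was 2.38 between miR-17-3p and miR-19a-3p (1.72 to 3.32). For the higher arms it was 2.36 between miR-17-5p and miR-19a-3p (2.02 to 2.75), which are cut from the same transcript with MIR18A between them. miR-20-5p exceeded miR-19a-3p by 1.95 (1.66 to 2.30) and was itself exceeded by miR-17-5p by 1.21 (1.04 to 1.40). miR-92a-3p stood between, 1.52 below miR-17-5p (1.38 to 1.68) and 1.55 above miR-19a-3p (1.37 to 1.76). The near copies miR-19b-3p and miR-19a-3p were closest among the pairs that differed (1.18, 1.04 to 1.35). The intervals cover counting error only, so how far such gaps recur between pigs was not measured.

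By seed group, the ratio of the miR-17 sum exceeded that of miR-92 by 1.40 (1.31 to 1.51) and that of miR-19 by 1.88 (1.73 to 2.05). The ratio of miR-92 exceeded that of miR-19 by 1.34 (1.27 to 1.42). The 24 and 34 reads of the miR-18 group left it undistinguished from the other 3, with an interval of 0.977 to 3.02 against miR-17. In shares of the family's own reads, miR-17 went from 8.01% in LDM (7.57 to 8.46) to 11.5% in PMM (11.1 to 11.9). miR-19 went the other way, from 21.2% (20.6 to 21.9) to 16.2% (15.7 to 16.6). These contrasts and shares cover the 14 members only. With the 5 other entries that carry a group's seed counted, the ratios were 1.76 for miR-17, 1.47 for miR-92 and 1.13 for miR-19. Their order was kept, but miR-17 stood less far above the other 2. The miR-17 group then held 5850 of 25923 reads in LDM and 11820 of 44648 in PMM.

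The order of the members was nearly the same in both muscles. In LDM it ran miR-92a-3p, miR-19b-3p, miR-17-5p, miR-19a-3p, miR-20-5p, miR-17-3p and miR-92b-3p. miR-19a-3p and miR-20-5p did not differ there beyond counting error (509 against 484 reads, ratio 1.05, 0.927 to 1.19). In PMM miR-20-5p came before miR-19a-3p, with 1062 against 572 reads (1.86, 1.68 to 2.06). From miR-92b-3p downward no neighbours in the order differed beyond counting error in LDM, and in PMM none did from miR-18a-5p downward. The products of the single miR-17 transcript thus ranged in LDM from 20.7 normalised reads for miR-18a-5p to 690 for miR-17-5p among the higher arms that no other cluster shares. This order and range are of reads, since how evenly a library captures different miRNAs was not measured.

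**Figure D3:**
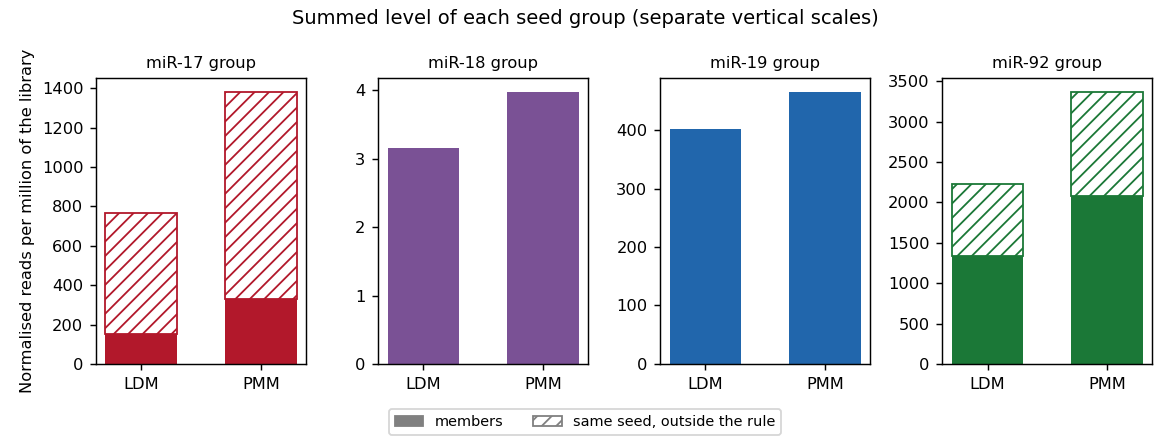
Summed level in RPM for each seed group in LDM and PMM, 1 library each, with separate vertical scales that start at 0; solid bars are the members, the minor arms counted under their name, and hatched bars the entries outside the rule with the seed of that group. The members of the miR-17 group went from 152 to 331 RPM and those of the miR-19 group from 402 to 465 RPM.

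Other entries carried the same seeds under other names. The seed of 1 of the 4 groups, as bases 2 to 8, was found in 5 entries outside the rule, 4 with the authors' names beginning with PN, a prefix that no source used here explains, and miR-32-5p. Their sequences are shown because they hold much of the reads with these seeds. The PN entries were not matched to precursors. They may therefore be products of miR-20b, miR-106b, miR-93 or miR-25, which had no entry by name.
PN-13-5p: tAAAGTGCtgacagtgcagata
PN-14-5p: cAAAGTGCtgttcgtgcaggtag
PN-81-5p: cAAAGTGCtcacagtgcaggtag
PN-15-3p: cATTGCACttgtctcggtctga
ssc-miR-32-5p: tATTGCACattactaagttgc

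PN-81-5p differs from miR-17-5p at 1 of 23 positions (T10C), and PN-14-5p at 4 of 23. PN-13-5p differs from miR-20-5p at 3 of 22 and PN-15-3p from miR-92a-3p at 4 of 22. The last 10 bases of miR-17-5p recur in 5 of the 668 entries (0.749%), namely miR-17-5p, miR-20-5p, miR-106a-5p, PN-14-5p and PN-81-5p. PN-13-5p had 3650 normalised reads in LDM and 6120 in PMM (1.68-fold, 1.61 to 1.75), more than any named member of the miR-17 group. PN-14-5p had 1746 in LDM and 2852 in PMM (1.63-fold, 1.53 to 1.74). Together with PN-81-5p they held 80.3% of the reads of that group and its seed in LDM (79.2 to 81.3) and 76.1% in PMM (75.3 to 76.8). Their ratios were lower than that of miR-17-5p, by 1.37 for PN-13-5p (1.24 to 1.53) and 1.41 for PN-14-5p (1.26 to 1.58), and they could not be told apart from each other (1.03, 0.951 to 1.11). With these entries counted, the miR-17 group was 1.76-fold higher in PMM (1.70 to 1.81) in place of 2.13.

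PN-15-3p had 7802 normalised reads in LDM and 10997 in PMM (1.41-fold, 1.37 to 1.45), and its ratio was below that of miR-92a-3p by 1.07 (1.03 to 1.12). PN-81-5p had 7 reads in LDM and 18 in PMM and miR-32-5p 34 and 52, and the interval of either ratio held 1 (0.891 to 6.33 and 0.846 to 2.11). No entry outside the rule had the seed of miR-18 or miR-19.

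The members were then set among all entries. Log2 ratios were taken after adding a pseudocount of 1 RPM to each library, so the change of low entries is understated. Of the 6 members with a mean of at least 10 RPM, 2 were at least 2-fold higher in PMM on this scale, miR-17-5p (log2 ratio 1.19) and miR-17-3p (1.13), where 40 of all 185 entries at that level were (21.6%). The number at least 2-fold lower was 0, against 12 of 185 (6.49%). After centring on the 1.39-fold median 0 of the 6 were 2-fold apart in either direction, against 11.4% of all entries higher and 14.1% lower. The counting interval lay above 1 as deposited for 5 of the 6, which reads against 61.6% of all entries, and below 1 for 0 of 6, against 24.3%. The median log2 ratio of these 6 was 0.76 and that of all 185 entries 0.35, and the median over all 14 members was 0.46. Of the 8 members under 10 RPM, miR-92b-3p and miR-19b-1-5p alone had a counting limit on 1 side of equal level. Their lower limits, 1.34 and 1.33, lay below the 1.39-fold middle of the libraries.

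**Figure D4:**
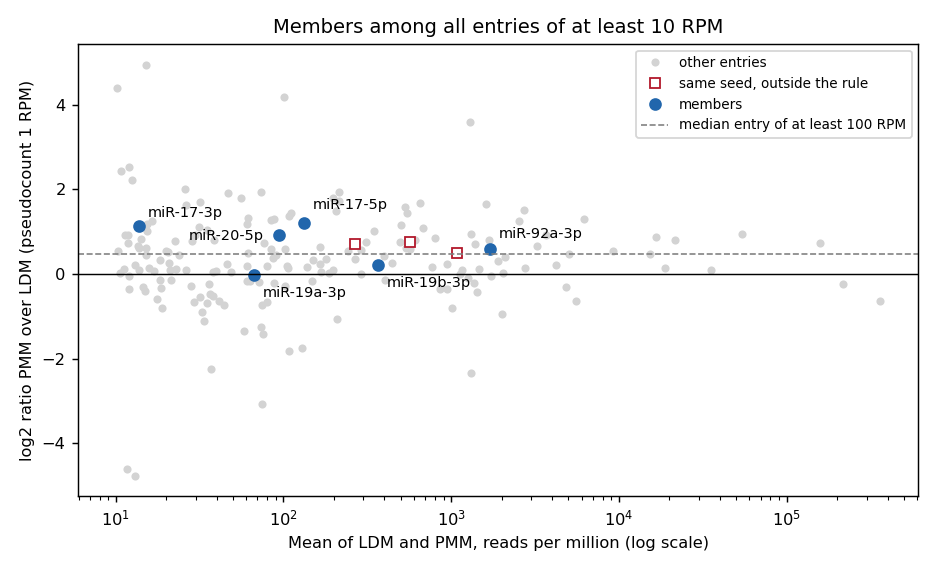
Log2 ratio of PMM over LDM (pseudocount 1 RPM) against the mean level in RPM (log scale) for the 185 entries of at least 10 RPM, with the 6 members (filled circles), the same-seed entries (open squares) and all others (grey). The members lie between −0.03 for miR-19a-3p and 1.19 for miR-17-5p, inside the cloud of other entries.

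Markers of other cells that the samples could hold were mostly listed higher in PMM as deposited, as were 132 of all 185 entries of at least 10 RPM. In pooled muscle, fewer cells of a type and less RNA per cell cannot be told apart. Endothelial markers were found for 4 of 4 listed miRNAs, 3 of them higher in PMM and miR-222-3p at 0.882-fold, and their sum went from 1370 to 2767 RPM. Leukocyte markers were found for 4 of 6, all 4 higher, with a sum of 117 RPM in LDM and 214 RPM in PMM. Fibroblast markers were found for 3 of 4, all 3 higher, from 5867 to 9879 RPM, and smooth muscle markers for 2 of 2, both higher, from 17000 to 29221 RPM, with miR-145-5p (1.09-fold) below the 1.39-fold middle of the libraries. Of 3 red blood cell markers 1 was found, miR-451-5p, which went from 853 to 1026 RPM (1.18-fold, also below that middle), while 1 of the 4 skeletal muscle markers was higher in PMM. The lists of liver (1 of 1 found), nerve (1 of 2) and epithelium (1 of 5) each summed to at most 21.3 RPM in either library. The epithelial marker found, miR-205-5p, was at 0.341-fold, and none of the markers found was listed at 0. The part of these cells in the ratios of the members was not tested.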

How the data were processed

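Small RNA of 10 to 40 nt was read single-end in 36 bp from 1 library per muscle, made by the authors from pooled RNA. The labels' extraction text names adipose tissue, while all other labels name muscle. The deposited table holds normalised reads per miRNA, treated as a signal, and its column of the authors' own p-values was not used. The build in the submitters' processing notes is Sscrofa 10.2. The aligner, the miRNA reference and how reads were normalised are not given in the sources used here. Gene order came from RefSeq (Sscrofa11.1), without coordinates.

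Members, lists and comparisons were chosen with earlier results of these data known. All members were named, with entries sharing a seed and the 3 entries of at least 100 RPM nearest in ratio to the highest member. Ratios are of deposited values without a pseudocount unless called log2. Intervals are exact conditional binomial (ratios), exact conditional odds ratio (ratios of ratios) and Clopper-Pearson (shares), from recovered reads. The first 2 kinds were checked on data simulated with counting error only, which cannot show how they hold under any other spread. No count model was run, since there was 1 library per muscle. Alternatives changed the scaling, pseudocount, filter, fold limit and members. Intervals were computed with scipy 1.17.1 under Python 3.11.15, tables with pandas 2.3.3 and numpy 2.4.6, and plots with matplotlib 3.10.9.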

Additional observations from a re-analysis of the deposited data

How the results depend on the processing

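With 1 library per muscle no replicate could be left out. No paired analysis was possible because each muscle had 1 pooled library and no test was made. Rescaling by the library total moved no group ratio beyond its counting interval. Median centring, the total without the 10 highest entries and the trimmed mean lowered every ratio, since their factors on the PMM values were 0.721, 0.770 and 0.827 in these data. On the log2 scale the miR-17 group sum (1.09) became 0.62, 0.71 and 0.82 under these 3 in turn, the miR-92 group sum (0.60) became 0.13, 0.22 and 0.33, and the miR-19 group sum (0.18) reversed to −0.29, −0.20 and −0.0973. miR-19b-3p (0.21) reversed likewise, to −0.26, −0.17 and −0.0652. Without joined entries the miR-19 group sum was 0.00559 and the miR-92 group sum 0.97. The latter then rested on 44 reads in LDM and 99 in PMM, with a log2 interval of 0.441 to 1.51. With same-seed entries the miR-17 group sum was 0.81 and the miR-92 group sum 0.56. Of the 14 members 10 kept the sign of their log2 ratio under all 6 scaling and pseudocount alternatives. The other 4 were miR-19b-3p, miR-18a-5p, miR-18a-3p and miR-363-3p, the last 3 with intervals that held 1. The 2 members at least 2-fold higher became 0 under each of the 3 scalings named and at a 4-fold limit, 1 with a pseudocount of 10 RPM or a mean of at least 100 RPM, and 4 at 1.5-fold. The number 2-fold lower was 0 in every alternative. Without the 10 highest entries in the denominator the 14 members held 2.39% of LDM and 2.73% of PMM. Over the 5 precursors with both arms the minor arms held 0.520% in LDM and 0.860% in PMM. For miR-17, the only precursor with both arms of at least 10 RPM, the share was 9.37% and 9.45%. The pooled share mixes precursors of different levels, and miR-19b-1-5p and miR-92a-1-5p were listed at 0 in LDM. For miR-17, miR-18a and miR-20 the ratio of the arms' ratios was 1.01, 1.08 and 0.911, each with an interval that held 1. Depth limits the members under 30 reads in both libraries, 7 of the 14, whose ratios carry wide intervals.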

Other observations

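The 3 entries outside the rule whose log2 ratio was nearest that of miR-92a-3p (0.60), among 88 candidates of at least 100 RPM and over 2 libraries only, were miR-99a-5p (0.61), miR-374a-5p (0.59) and miR-574-3p (0.58). The shifted bases 2 to 8 of miR-106a-5p, AAGTGCT, were found in 1 other entry, the one whose first name is PN-40-3p, which had 12 reads in LDM and 13 in PMM.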
